A study of Mus musculus with 6 samples.

Results

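The genes of the liver X receptor (LXR) pathway and of cholesterol efflux were examined in the livers of 6 male mice aged 8 weeks, 1 array per mouse. The list held 10 genes chosen by symbol: the receptor genes Nr1h3 and Nr1h2, the transporter genes Abca1, Abcg1, Abcg5 and Abcg8, and Mylip, Lpcat3, Pltp and Scarb1. Of these, 9 were measured, among 30701 genes with a probe set of their own name and 65956 probe sets in all. Each of the 9 had a single probe set under its name, so the choice of the brightest one never acted. Nr1h2 was not analysed here, since no probe set was listed under its symbol.

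The 2 groups held 3 mice each. The mothers of the group titled HFD-inulin had been treated with inulin, a fermentable plant fibre, and the mothers of the group titled HFD had received a high-fat diet (HFD). The first title also names HFD, and the labels give no strain, dose, timing, litter or offspring diet. P-values therefore measure the spread between these 3 and 3 mice, part of which may be shared by litter or technical.

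LXR alpha, encoded by Nr1h3, and LXR beta, encoded by Nr1h2, are nuclear receptors that bind oxysterols and act as partners of the retinoid X receptor (RXR). When sterols accumulate they switch on genes that move cholesterol out of cells, into HDL particles or into bile, together with genes of fatty acid synthesis and phospholipid remodelling. In liver the sterols leave mainly through the canalicular pair ABCG5 and ABCG8, while ABCA1 at the sinusoidal face loads apolipoprotein A-I and SR-BI, encoded by Scarb1, takes cholesterol back from HDL.

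RXR and LXR bind together to the DR4 element, a direct repeat of the half-site AGGTCA with any 4 bases between the repeats. RefSeq promoter windows (GRCm38.p6, 250 bases before to 50 after a start) were at hand for 8 of the 10 listed genes, in 10 windows, and were searched on both strands. At most 3 of the 12 letters of the repeats were allowed to differ, a limit set after the matches were seen. Of the 10 windows 1 held such a match, that of Abca1, and so did 21.9% of all 32851 windows. The match lies from -67 to -52 relative to the start and reads on the strand opposite to the gene. It is shown because Abca1 is the textbook LXR target of the list, at chr4:53159940-53159969 on the minus strand, with the match in capitals.
Abca1: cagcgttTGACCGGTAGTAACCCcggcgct

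Abcg5 and Abcg8 are transcribed away from each other. The 109 bases between their neighbouring starts are shown because both genes share them, while Abcg8 but not Abcg5 was lowest in HFD-inulin array 2. They lie at chr17:84683012-84683120 and are given on the plus strand, that of Abcg8. The capitals mark AGATAA, the letters bound by GATA factors, which are read here on the minus strand.
Abcg5-Abcg8 interval: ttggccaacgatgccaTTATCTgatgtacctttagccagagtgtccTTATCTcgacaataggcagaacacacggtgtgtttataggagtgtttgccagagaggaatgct
The interval holds 2 of these matches. The 300-base window at each of these starts holds 3, counted over both strands, and 0.107% of all windows hold at least 3. These windows overlap and each contains the whole interval, so its 2 matches are counted in both. The motif was chosen after the sequence was seen, and a match describes letters and not a bound site.

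The values are the authors' log2 signals, so a difference of 1 is a doubling, and signals of different probe sets cannot be ranked against each other. Alb, the hepatocyte gene for albumin, measured 11.4 to 11.6, near the top of the scale. The arrays also split across the groups. The 245 probe sets numbered on chromosome Y that share their values exactly with another averaged 1.34 to 1.91 in HFD-inulin arrays 1 and 2 and HFD array 1, called the low part here, and 2.99 to 3.24 in HFD-inulin array 3 and HFD arrays 2 and 3, the high part. The median of all probe sets in an array was 1.17 to 1.20 in the low part and 1.25 to 1.26 in the high part. The origin of the split was not tested. Every member's difference, with that of the other genes given in most detail, is also given within the low and high part, in that order. Each part sets 2 arrays against 1, so the sign of a small difference within a part says little.

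No member passed limma's threshold of 0.05 after Benjamini-Hochberg adjustment over all 65956 probe sets, nor did any other probe set (0 called, 0%). The smallest adjusted p of a member was 0.902. In HFD-inulin 4 of the 9 members measured higher and 5 lower. Their median log2 difference was -0.12, against -0.016 over all probe sets. Without adjustment 4 of the 9 lay under 0.05 in limma, namely Pltp, Scarb1, Lpcat3 and Abcg5, beside 5.15% of all probe sets and 7.43% of genes whose brightest probe set reached the median signal. Pltp and Scarb1 were lower and Lpcat3 and Abcg5 higher, and of all probe sets 2.64% were lower and 2.52% higher at that p. The count fell to 0 without HFD-inulin array 1 and to 1 without HFD-inulin array 2, HFD array 1 or HFD array 2. It was 2 without HFD array 3, 5 without HFD-inulin array 3, and 0 by ordinary least squares. The groups did not overlap in 1 member, Scarb1, beside 10.3% of all probe sets, 6.02% lower and 4.32% higher. Among genes whose brightest probe set reached the median signal that share was 12.9%.

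**Figure D1:**
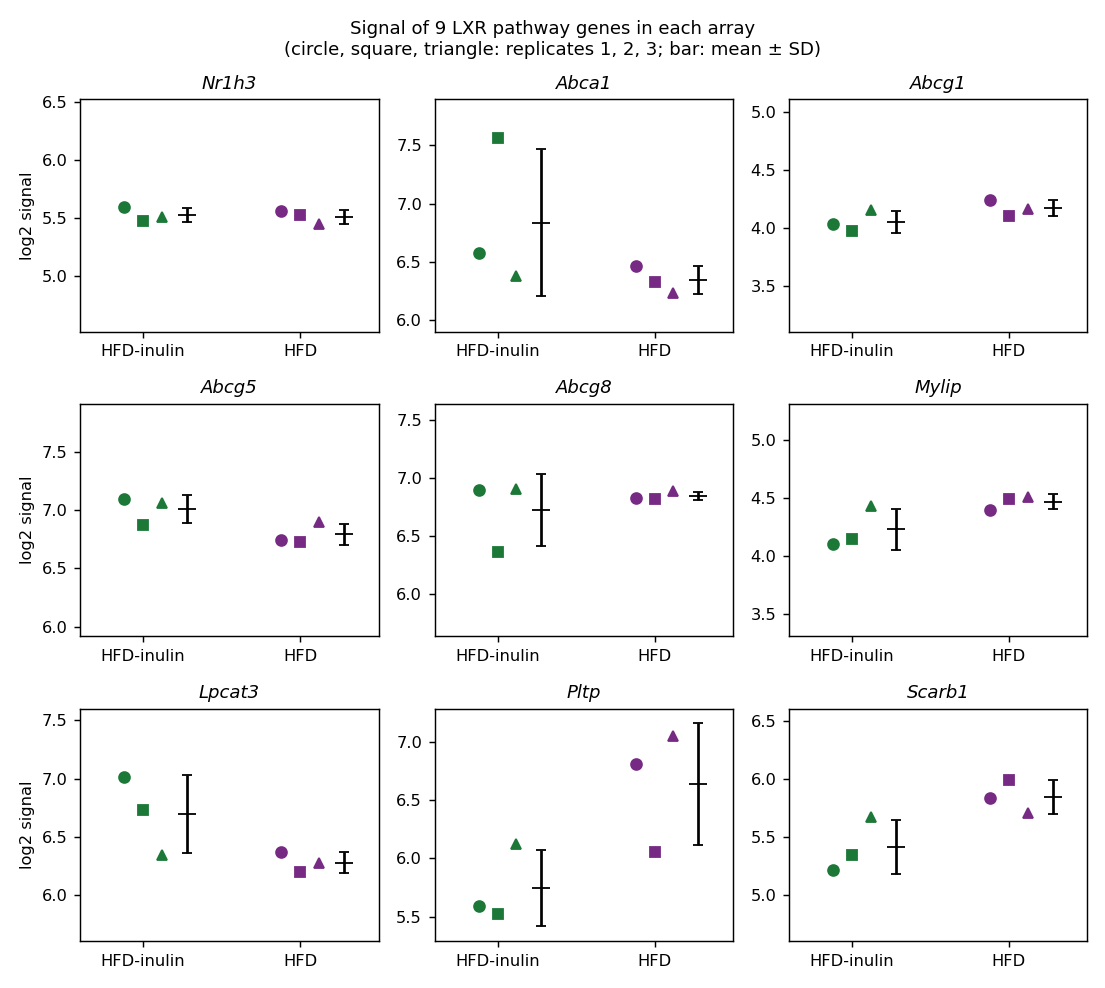
Log2 signal (y axis, every panel spanning 2 log2 units) of the 9 measured genes in the 3 HFD-inulin and 3 HFD arrays, with circle, square and triangle for replicates 1, 2 and 3 and the bar for the mean ± SD. Pltp and Abca1 range most widely, Nr1h3 least, and Scarb1 is the gene whose groups stand apart, by 0.030.

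The receptor gene itself differed least. Nr1h3 measured 5.59, 5.48 and 5.51 in replicates 1 to 3 of HFD-inulin, against 5.56, 5.52 and 5.44 in those of HFD, the order kept below. The 6 arrays spanned 0.15, and the groups overlapped throughout. The difference was 0.018 (SE 0.067), with a 95% interval of -0.14 to 0.18. Its sign was not stable, at -0.022 in the low part and 0.024 in the high part.

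Among the receptor's partners and coregulators, 18 of 20 listed genes were measured, 6 higher and 12 lower, with a median of -0.065. Under an unadjusted p of 0.05 lay 1 of the 18, beside 5.15% of all probe sets and 7.43% of genes at or above the median signal. This was Crebbp, which encodes the acetyltransferase CBP. It measured 5.01, 5.11 and 4.98 in HFD-inulin and 5.20, 5.27 and 5.16 in HFD (difference -0.18, SE 0.068, within the parts -0.14 and -0.23). Ppargc1a, the coactivator PGC-1 alpha of fasting metabolism, was low in HFD-inulin arrays 1 and 2 (2.92 and 2.63) and between 3.55 and 3.90 in the others, and its difference within the parts was -0.86 and -0.050. Trrap, a scaffold of acetyltransferase complexes (-0.17), and Ncoa1, the steroid receptor coactivator SRC-1 (-0.16), followed. The groups did not overlap in 6 of the 18, all lower, beside 6.02% of all probe sets in that direction. All 18 reached the median signal, and among such genes 12.9% did not overlap in either direction. The largest of these 6 differences was that of Crebbp and the smallest that of Gps2, a corepressor subunit, at -0.052. The groups of Gps2 stood apart by 0.0060. Adjusted over all probe sets, 0 of 18 passed in limma.

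Pltp showed the largest difference of the members. It encodes phospholipid transfer protein, which passes surface phospholipid from triglyceride-rich particles to HDL. It measured 5.59, 5.53 and 6.12 in HFD-inulin, against 6.81, 6.05 and 7.06 in HFD. HFD arrays 1 and 3 were high, HFD-inulin arrays 1 and 2 were low, and HFD array 2 lay just under HFD-inulin array 3, so the groups overlapped. The group means were 5.75 ± 0.33 and 6.64 ± 0.52 (SD, n = 3), a difference of -0.89 (SE 0.28) or a 0.538-fold ratio, with a 95% interval of -1.57 to -0.22. Unadjusted p was 0.0173 and adjusted p 0.902 in limma. The difference was -1.25 in the low part and -0.43 in the high part. It ranged from -1.19 without HFD array 2 to -0.69 without HFD array 3.

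Scarb1, the HDL receptor gene, was lower in each HFD-inulin array than in any HFD array. It measured 5.22, 5.35 and 5.67 in HFD-inulin and 5.84, 5.99 and 5.70 in HFD. HFD-inulin array 3 came within 0.030 of HFD array 3. The means were 5.41 ± 0.23 and 5.84 ± 0.14 (SD, n = 3), a difference of -0.43 (SE 0.14, 95% interval -0.75 to -0.11) and a 0.742-fold ratio. Unadjusted p was 0.0166 and adjusted p 0.902 in limma. The low part gave -0.55 and the high part -0.17.

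Besides hepatocytes, sinusoidal endothelial cells and Kupffer cells also express Scarb1 and Pltp, and in whole liver fewer cells of a type and less RNA per cell cannot be told apart. Of 8 Kupffer cell markers 6 measured lower in HFD-inulin, with a summed linear signal of 343 to 389 in HFD-inulin and 361 to 389 in HFD. Of 7 sinusoidal endothelial markers 6 measured lower, with sums of 225 to 227 and 223 to 245. Of 8 hepatocyte markers 7 measured lower, with sums of 10513 to 11778 and 11886 to 13015. None of these defining markers was near 0. Their part in the differences of Scarb1 and Pltp was not tested.

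**Figure D2:**
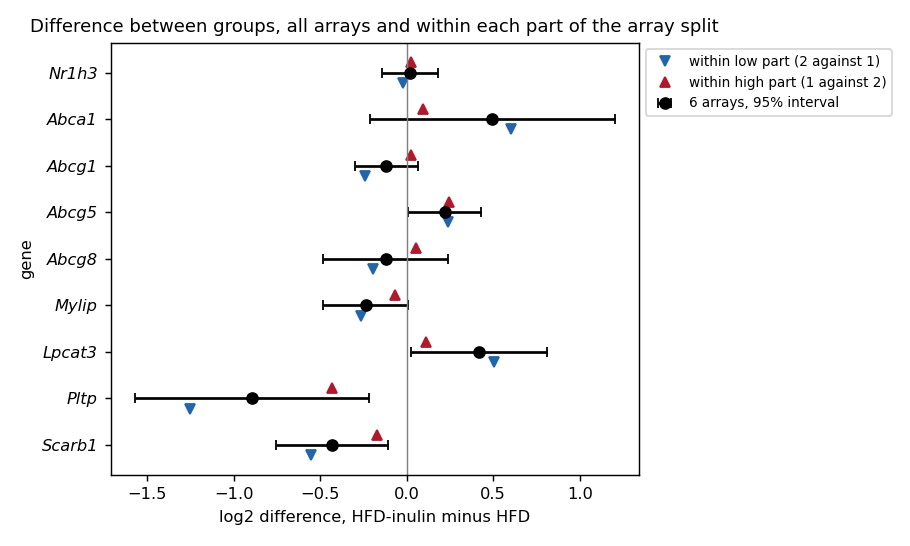
Log2 difference, HFD-inulin minus HFD (x axis), of the 9 genes (y axis), with black circles and bars for limma's estimate and 95% interval over 6 arrays and triangles for the difference within each part of the array split. Pltp lies lowest at -0.89, Abca1 highest at 0.50 with an interval that includes 0, and 6 of the 9 genes have the same sign in both parts.

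The HDL list outside the members had 14 of 16 genes measured, 5 higher and 9 lower, with a median of -0.056 and 0 passing the adjusted test in limma. Under an unadjusted p of 0.05 lay 1 gene, beside 5.15% of all probe sets and 7.43% of genes at or above the median signal. This was Lipg, the endothelial lipase that hydrolyses HDL phospholipid. It measured 4.44, 3.56 and 4.47 in HFD-inulin and 5.28, 5.36 and 4.75 in HFD, so the groups stood apart, with a difference of -0.98 (SE 0.28, unadjusted p = 0.0112). Within the parts it was -1.29 and -0.59. Apoc3, an inhibitor of triglyceride clearance (-0.13), and Apoe, the ligand of remnant receptors (-0.13), also measured lower in each HFD-inulin array than in any HFD array. Their groups stood apart by only 0.0024 and 0.034. These 3 of 14 genes without overlap stand beside 6.02% of all probe sets in that direction. Among genes whose brightest probe set reached the median signal, 12.9% did not overlap in either direction. Lcat, which esterifies HDL cholesterol, measured higher by 0.14 with overlapping groups.

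Lpcat3 measured higher in HFD-inulin. It encodes the acyltransferase that puts polyunsaturated chains into membrane phospholipid. The gene measured 7.01, 6.73 and 6.35 in HFD-inulin and 6.36, 6.19 and 6.27 in HFD. HFD-inulin arrays 1 and 2 were high, and array 3 lay at the level of HFD array 1. The means were 6.69 ± 0.33 and 6.28 ± 0.09 (SD, n = 3), a difference of 0.42 (SE 0.16, 95% interval 0.024 to 0.81) and a 1.34-fold ratio. Unadjusted p was 0.0407 and adjusted p 0.902 in limma. The low part gave 0.50 and the high part 0.11, and without HFD-inulin array 1 the difference was 0.26.

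Other enzymes of phospholipid remodelling did not stand out. All 13 listed genes were measured, 10 higher and 3 lower, with a median of 0.045 and 0 under an unadjusted p of 0.05 in limma, where all probe sets had 5.15%. The adjusted count was 0 as well. Lpgat1, an acyltransferase of lysophospholipids, measured 7.65 in HFD-inulin array 2 and 6.05 to 6.35 in the other 5 arrays. Pemt, which methylates phosphatidylethanolamine to phosphatidylcholine, differed by 0.070, Pla2g6, a phospholipase, by 0.26 and the acyltransferase gene Mboat1 by 0.11, each with overlapping groups. Mboat1 averaged below the median signal and measured 1.40 in HFD-inulin array 2, against 0.79 to 0.96 in the others. Within the parts Pemt gave 0.13 and -0.0038 and Mboat1 0.20 and -0.057, so both changed sign. The second value of each was smaller in size than its SE over 6 arrays, 0.065 and 0.16.

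Abca1, which encodes the transporter that starts HDL formation, was high in 1 mouse. It measured 6.58, 7.56 and 6.37 in HFD-inulin and 6.47, 6.32 and 6.23 in HFD. HFD-inulin array 2 lay 1.22 above the HFD mean and the other arrays at most 0.23 from it. The difference of 0.50 (SE 0.30, 95% interval -0.21 to 1.20, adjusted p = 0.902 in limma) fell to 0.13 without HFD-inulin array 2. It was 0.60 in the low part, which holds that array, and 0.094 in the high part. In the same array the neutrophil gene S100a8 measured 2.33, against 0.50 to 0.91 in the others, and the cholangiocyte gene Krt19 3.04, against 1.82 to 1.93. The neutrophil gene Ngp was instead lowest in that array, at 0.68. The neutrophil gene Camp (1.98) lay below HFD array 2 (2.08) and the cholangiocyte gene Sox9 (3.04) below HFD array 3 (3.13). The remaining measured markers of both cell types were highest in HFD-inulin array 2. The summed linear signal of 6 neutrophil markers, 4 of which measured higher in HFD-inulin, was 14.2 to 22.9 in HFD-inulin and 14.0 to 14.9 in HFD, and that of 5 cholangiocyte markers, also 4 higher, was 24.9 to 32.6 and 23.5 to 26.6. None was at 0, and 3 of the 6 neutrophil markers averaged below the median signal of all probe sets. The part of either cell type in the signal of Abca1 was not tested.

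Abcg1 encodes the transporter that passes cholesterol on to HDL already formed, mainly from macrophages. It measured 4.04, 3.97 and 4.16 in HFD-inulin and 4.25, 4.11 and 4.17 in HFD. The groups overlapped, and the difference was -0.12 (SE 0.076, 95% interval -0.30 to 0.066). Within the low part it was -0.24 and within the high part 0.024, so its sign differed between the parts.

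Abcg5 and Abcg8 encode the subunits of a sterol pump that exports cholesterol into bile. Abcg5 measured 7.10, 6.87 and 7.06 in HFD-inulin and 6.75, 6.73 and 6.90 in HFD. HFD-inulin array 2 lay just below HFD array 3, the other 2 HFD-inulin arrays above every HFD array. The difference was 0.22 (SE 0.088, 95% interval 0.0081 to 0.43, unadjusted p = 0.0439, adjusted p = 0.902 in limma), with 0.24 in the low part and 0.25 in the high part. After quantile normalization it was 0.099.

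Abcg8 measured 6.90, 6.36 and 6.91 in HFD-inulin and 6.82, 6.82 and 6.88 in HFD. It was low in HFD-inulin array 2, and the other 5 arrays lay together. Its difference of -0.12 (SE 0.15, 95% interval -0.48 to 0.24) turned to 0.059 without that array. The parts gave -0.19 and 0.055.

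When each gene was set relative to its own HFD mean, Abcg5 exceeded Abcg8 by 0.26, 0.56 and 0.20 in HFD-inulin. The same quantity was -0.025, -0.042 and 0.067 in HFD, so the groups did not overlap. Of single probe sets 10.3% did not overlap, and the share among pairs of genes was not computed. This contrast was chosen after the values were seen and carries no test. Its mean was 0.34, and 0.32 after quantile normalization. Without HFD-inulin array 2 it was 0.23, and both genes then measured higher in HFD-inulin, Abcg5 by 0.29 and Abcg8 by 0.059. After quantile normalization Abcg8 without that array was at -0.042.

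**Figure D3:**
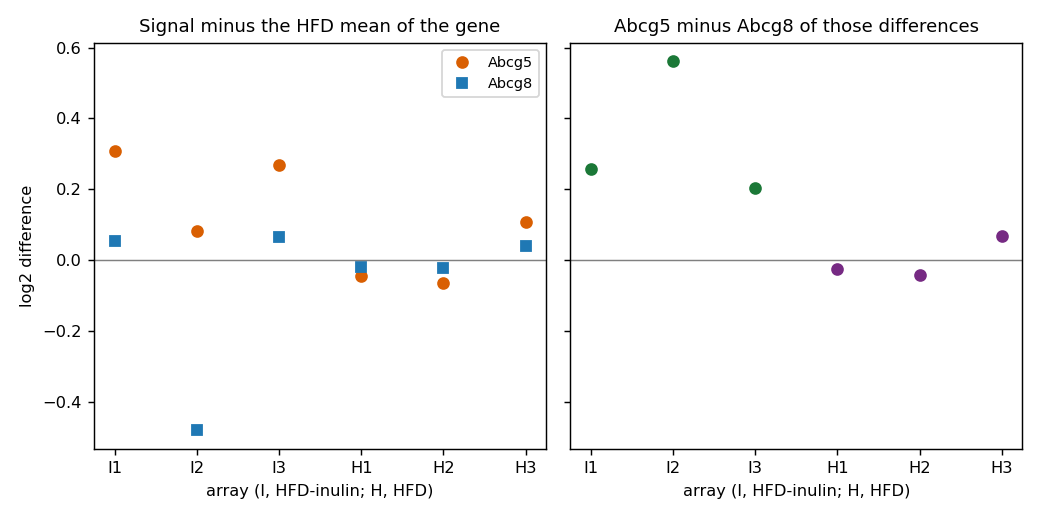
Left, log2 signal of Abcg5 and Abcg8 minus the HFD mean of the same gene in each array (I, HFD-inulin; H, HFD); right, Abcg5 minus Abcg8 of those differences. The 3 HFD-inulin arrays sit at 0.20 to 0.56 on the right and the 3 HFD arrays at -0.042 to 0.067.

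Mylip encodes the ubiquitin ligase IDOL, through which LXR lowers the LDL receptor. It measured 4.10, 4.15 and 4.43 in HFD-inulin and 4.39, 4.49 and 4.51 in HFD. HFD-inulin arrays 1 and 2 were low, and array 3 lay among the HFD arrays. The difference was -0.24 (SE 0.10, 95% interval -0.48 to 0.0059, unadjusted p = 0.0544, adjusted p = 0.902 in limma). The low part gave -0.27 and the high part -0.069.

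Of the 14 genes listed for the LDL receptor route and sterol sensing 9 were measured, 5 higher and 4 lower, with a median of 0.038. The LDL receptor gene itself was not analysed here. Srebf2, the sterol-responsive activator of cholesterol synthesis, was the 1 gene under an unadjusted p of 0.05, with 4.39, 4.53 and 4.24 in HFD-inulin and 4.17, 4.17 and 4.19 in HFD, a difference of 0.21, or 0.29 and 0.061 within the parts. This 1 of 9 stands beside 5.15% of all probe sets and 7.43% of genes at or above the median signal. Sqle, squalene epoxidase (0.27), Scap, the escort protein of SREBP (-0.13), and the remnant receptor gene Lrp1 (0.13) had overlapping groups, and Lrp1 changed sign between the parts, at 0.26 and -0.075. None of the 9 passed the adjusted test in limma.

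LXR also drives lipogenic genes, and these did not follow 1 direction. Of 15 listed genes 12 were measured, 4 higher and 8 lower, with a median of -0.073 and 0 passing the adjusted test in limma. Under an unadjusted p of 0.05 lay 2 of the 12, both lower, beside 2.64% of all probe sets in that direction. Of genes at or above the median signal 7.43% lay under it in either direction. Elovl5, an elongase of polyunsaturated fatty acids, measured 8.84, 8.32 and 8.44 in HFD-inulin and 9.42, 8.89 and 9.35 in HFD (difference -0.68, SE 0.19, within the parts -0.83 and -0.68), and its groups stood apart. The groups did not overlap in 1 of the 12, beside 10.3% of all probe sets and 12.9% of genes at or above the median signal. Scd1, the desaturase that makes oleate, measured 9.26, 9.56 and 10.01 in HFD-inulin and 10.83, 9.71 and 10.74 in HFD (-0.81, SE 0.33, within the parts -1.42 and -0.21), with overlap. Acly, ATP citrate lyase (-0.32), and Thrsp, a carbohydrate-responsive lipogenic gene (-0.92), had differences of opposite sign in the parts, -0.58 and 0.11 for Acly and -2.03 and 0.43 for Thrsp.

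Oxysterols, the ligands of LXR, are made and cleared by cytochromes P450 that also serve bile acid synthesis. Of 12 listed genes 11 were measured, 5 higher and 6 lower, with a median of -0.0023. Cyp39a1, an oxysterol hydroxylase, was the 1 gene under an unadjusted p of 0.05 (-0.30, SE 0.12, within the parts -0.44 and -0.046), beside 5.15% of all probe sets. Of genes at or above the median signal 7.43% lay under it. Cyp8b1, the sterol hydroxylase that makes cholic acid, measured 7.42, 3.33 and 7.42 in HFD-inulin and 8.52, 8.01 and 8.32 in HFD, so the groups stood apart and HFD-inulin array 2 was far below the rest. Its difference was -2.23 (SE 1.07, unadjusted p = 0.0776 in limma), or -3.14 and -0.75 within the parts. The groups did not overlap in 1 of the 11, beside 10.3% of all probe sets and 12.9% of genes at or above the median signal. Cyp7b1, which clears side-chain hydroxylated sterols, measured 8.26, 8.59 and 7.02 against 6.76, 7.70 and 6.50, and its difference was 1.66 in the low part and -0.080 in the high part. Cyp46a1, the cholesterol hydroxylase best known in neurons, differed by -0.60 with overlap and changed sign between the parts, at -1.31 and 0.013. Adjusted over all probe sets 0 of the 11 passed in limma.

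Genes that move cholesterol inside the cell were evenly divided, 10 higher and 10 lower among 20 measured of 23 listed, with a median of -0.0058. In limma 0 lay under an unadjusted p of 0.05, beside 5.15% of all probe sets, and 0 passed adjusted. Nceh1, a cholesterol ester hydrolase, measured 4.55, 5.05 and 3.78 in HFD-inulin and 3.93, 3.60 and 3.73 in HFD, a difference of 0.70 (SE 0.30) with HFD-inulin arrays 1 and 2 high, and 0.86 and 0.11 within the parts. Lipe, hormone-sensitive lipase (0.34), Osbpl9, an oxysterol-binding protein homologue (0.29), and Npc2, which carries cholesterol out of lysosomes (-0.11), overlapped between groups, and Osbpl9 changed sign between the parts, at 0.46 and -0.051.

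For the 3 members with the widest range over the arrays, the most similar genes were sought among 14047 protein-coding genes at or above the median signal. Each gene was centred on its mean over 6 arrays, and likeness was the root mean square (RMS) of the difference between centred values. Pltp, with a range of 1.53, was closest to Mmd2 (0.16), Scd1 (0.16) and Serpinb1a (0.19). Scd1 is the desaturase above, and in it and Pltp HFD arrays 1 and 3 were high. That order was not theirs alone. All measured genes of the lipogenic list except Acly and Mlxipl were higher in HFD arrays 1 and 3 than in HFD array 2. Abca1, with a range of 1.33, was closest to Spcs2, a signal peptidase subunit (0.043), Xbp1, a transcription factor of the unfolded protein response (0.047), and Plpp5 (0.053). All 3 peaked in HFD-inulin array 2, Xbp1 at 7.41 there against 6.06 to 6.41 elsewhere. Lpcat3, with a range of 0.82, was closest to Coq5, a methyltransferase of ubiquinone synthesis (0.037), Tmem37 (0.047) and Riok2 (0.047), which were highest in HFD-inulin array 1. With 6 arrays and so many genes searched, close matches say little beyond which arrays were high.

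**Figure D4:**
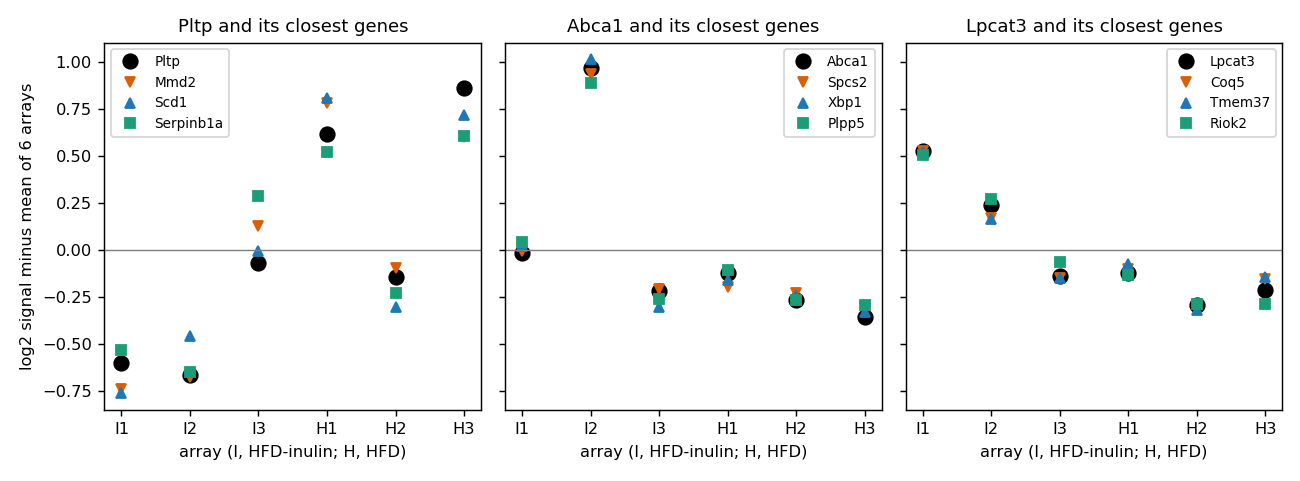
Log2 signal minus the mean of the 6 arrays (y axis) for Pltp, Abca1 and Lpcat3 (black) and the 3 genes closest to each (coloured) in each array (I, HFD-inulin; H, HFD). The Abca1 panel peaks in I2, the Lpcat3 panel in I1, and the Pltp panel is low in I1 and I2 and high in H1 and H3.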

How the data were processed

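Total liver RNA was extracted with TRIzol and labelled with biotin, per the labels. The values are the authors' deposited log2 signals for 65956 probe sets, and the submitters' processing notes name Affymetrix Expression Console 1.0. That the scale is log2 was inferred from a range of about 0 to 12. How signals were summarized, background-corrected and filtered, and on which build, is not given in the sources used here. No detection limit was at hand.

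Probe sets were named through GEO's platform annotation with symbols updated through RefSeq (GRCm38.p6): 31258 had 1 gene, 1492 several and 33206 none listed. Groups were compared with limma 3.58.1 (lmFit, eBayes, R 4.3.3), two-sided, with no filter or covariate, and Benjamini-Hochberg adjustment over all probe sets. The fit was run on simulated independent noise with planted changes. That simulation held no array-wide shift and no split between arrays, so it cannot speak to either. Each gene was represented by its brightest probe set. All members, up to 4 genes of each list by smallest unadjusted p, and the 3 closest genes of the 3 widest-ranging members are named. Other lists' genes were named after their values were seen. Members and lists were chosen with earlier results of these data known. Summed linear signals are sums of 2 to the power of the log2 values. Alternatives are given in the closing section. The number of arrays limits the precision.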

Additional observations from a re-analysis of the deposited data

How the results depend on the processing

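The count of probe sets called after adjustment was 0 in limma and stayed 0 under the alternatives run except a trended and robust prior, which called 4, none a member. The count at an unadjusted p under 0.05, 3399, was 1873 without dim probe sets, where fewer probe sets are tested, and 2100 to 6525 when single arrays were left out. The 4 members under that threshold became 2 with the trended and robust prior, 2 without dim probe sets, 0 by ordinary least squares, 0 within the high part of the split and 0 to 5 when single arrays were left out, and the cause was not tested. Abca1, Abcg5, Mylip, Lpcat3, Pltp and Scarb1 kept their sign under all 18 alternatives. The difference of Nr1h3 turned to -0.012 after quantile normalization, to -0.022 within the low part, and ranged from -0.017 without HFD-inulin array 1, through -0.015 without HFD array 3, to 0.043 when single arrays were left out. Within the high part Abcg1 turned to 0.024 and Abcg8 to 0.055, and Abcg8 ranged from -0.21 to 0.059 over the left-out arrays. Whether the replicate numbers pair the mice was not settled. Deviations of same-numbered arrays from their group means correlated at 0.26, -0.28 and 0.40. HFD-inulin array 2 correlated best with HFD array 1 (0.40) and HFD-inulin array 3 with HFD array 2 (0.42). With 3 arrays per group these values cannot decide it. With the replicate number as a block 5 members and 3349 probe sets lay under an unadjusted p of 0.05 and 0 passed adjusted. Each part of the split has 1 array in a group, whose spread is borrowed from the rest.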

Other observations

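Some genes of the lists lay outside the rule for named genes and were picked after their values were seen. Cyp7a1, the rate-limiting enzyme of bile acid synthesis and an LXR target in mice, measured 4.18, 1.31 and 7.18 in HFD-inulin and 7.24, 5.84 and 6.21 in HFD. Its difference of -2.21 (SE 1.36, adjusted p = 0.902 in limma) was -4.50 in the low part and 1.15 in the high part. Fasn, fatty acid synthase, measured 5.84, 5.38 and 4.95 in HFD-inulin and 5.34, 4.48 and 5.04 in HFD, a difference of 0.44 (SE 0.29), or 0.27 and 0.19 within the low and high parts, while Scd1 of the same list differed by -0.81. The difference between Fasn and Scd1 was not tested. Rxra, the RXR most abundant in liver, measured 7.20 to 7.29 in HFD-inulin and 7.23 to 7.41 in HFD.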
